A study of Mus musculus with 2 samples.

Results

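Opposite-strand noncoding genes are annotated genes named after a neighbour that is transcribed from the other DNA strand, with the suffix os added to the neighbour's symbol. The members described here were the records of the GENCODE M21 mouse annotation whose name ends in os, with or without a final digit, and whose type is not protein coding. They numbered 292 of 55536 gene records, and each was set beside the gene that carries its name without the suffix, here called its partner. Of the 292, 288 had a partner, on 243 distinct genes that were all protein coding, and 33 partners had more than 1 member. The transcription factor gene Sox5 had the most, with 5. The 4 without a partner of that name were Ict1os, Snhg7os, Etos1 and Proscos.

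The libraries hold polyadenylated RNA of the midbrain of B6NCrl mouse embryos at embryonic day 12.5, males and females pooled, with no treatment or altered allele named in the labels. Replicate 1 came from 120 embryos and replicate 2 from 88, and these 2 libraries were the only group. Each library was made from 10 ng of RNA by oligo-dT priming and tagmentation, a transposase step that cuts DNA and adds adapters. The labels call the 2 libraries biological replicates, so values are compared between genes and between pools. With 1 group of 2 libraries the smallest p that an exact sign-flip test can give is 0.5, so no test is reported.

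Many protein-coding genes have a noncoding neighbour on the other strand. A divergent neighbour starts close to the 5′ end of the coding gene and runs away from it, so both can share a stretch of promoter, while other neighbours run through the coding gene in reverse. Such neighbours are known beside many genes for developmental transcription factors, and some are known as precursors of microRNAs, the short RNAs that pair with messenger RNAs mainly through bases 2 to 8, the seed. A library primed with oligo-dT is meant to read the forms that carry a poly(A) stretch, so transcripts without one can be missed.

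All 288 pairs lay on opposite strands of the same chromosome. In 35 pairs the member was divergent, with the 5′ ends of both genes at most 5 kb apart, and the median distance between those ends was 142 bases. Of these, 23 pairs had ends within 200 bases. In 82 pairs the genes overlapped at their 5′ ends, in 25 at their 3′ ends, in 123 the member lay wholly inside the partner, in 9 the partner lay inside the member and in 14 they lay apart in another way. Gene bodies overlapped in 239 pairs and exons in 159.

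The stretch of DNA that lies between both starts is shown for the 4 highest divergent members whose RefSeq promoter window, build GRCm38.p6, holds both annotated 5′ ends, because from it both genes of a pair are read in opposite directions. Each line runs 5′ to 3′ on the partner's strand and stops at the partner's first base, and the capitals mark the bases from the member's first base to the partner's first base. The windows are chr11:84525535-84525784 on the minus strand for Lhx1, chr11:86201193-86201443 on the minus strand for Brip1, chr7:30729540-30729784 on the minus strand for Tmem147 and chr4:109977775-109978053 on the plus strand for Dmrta2.
Lhx1os and Lhx1: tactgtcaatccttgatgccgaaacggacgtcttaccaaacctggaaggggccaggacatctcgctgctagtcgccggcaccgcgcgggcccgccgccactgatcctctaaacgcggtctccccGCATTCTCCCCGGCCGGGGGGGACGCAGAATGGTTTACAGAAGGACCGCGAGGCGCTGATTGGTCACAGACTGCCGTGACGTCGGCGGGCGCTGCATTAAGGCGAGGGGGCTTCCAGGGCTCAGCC
Brip1os and Brip1: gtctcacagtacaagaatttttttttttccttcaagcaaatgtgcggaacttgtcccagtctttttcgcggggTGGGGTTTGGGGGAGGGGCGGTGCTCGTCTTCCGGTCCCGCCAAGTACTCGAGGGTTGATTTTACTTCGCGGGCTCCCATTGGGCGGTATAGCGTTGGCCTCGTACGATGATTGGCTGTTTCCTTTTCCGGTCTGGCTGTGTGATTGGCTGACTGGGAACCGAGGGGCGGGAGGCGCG
Tmem147os and Tmem147: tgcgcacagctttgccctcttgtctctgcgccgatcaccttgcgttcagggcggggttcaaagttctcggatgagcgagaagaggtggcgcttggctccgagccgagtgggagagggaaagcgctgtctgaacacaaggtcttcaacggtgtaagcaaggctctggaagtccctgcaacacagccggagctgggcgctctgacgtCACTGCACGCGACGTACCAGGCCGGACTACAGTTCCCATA
Dmrta2os and Dmrta2: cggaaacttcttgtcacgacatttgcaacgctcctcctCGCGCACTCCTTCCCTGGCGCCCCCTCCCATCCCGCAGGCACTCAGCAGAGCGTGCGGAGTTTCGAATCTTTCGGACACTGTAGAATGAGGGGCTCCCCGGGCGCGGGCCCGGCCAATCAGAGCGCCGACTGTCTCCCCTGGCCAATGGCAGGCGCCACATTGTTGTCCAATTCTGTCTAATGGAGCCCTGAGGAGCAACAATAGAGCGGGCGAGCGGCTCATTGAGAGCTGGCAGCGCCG

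The annotated 5′ ends lay 125 bases apart for Lhx1os, 177 for Brip1os, 39 for Tmem147os and 240 for Dmrta2os. The whole windows hold 300 bases, from 250 before to 50 after a RefSeq start of the partner, which need not be its annotated 5′ end. Over these windows GC content was 65.7%, 57%, 64% and 63.7% in that order, and the CG dinucleotide occurred 31, 21, 28 and 26 times. Among the 13 partners of divergent pairs with both genes detected and a RefSeq window, the median was 64% GC and 26 CG dinucleotides. The same medians were 61.3% and 21 over 10208 detected protein-coding genes, and 52.7% and 7 over 27025 RefSeq genes. The letters TATAAA, searched on both strands, occurred in 0 of the 13 windows, in 6.59% of those of detected protein-coding genes and in 14.2% of all RefSeq windows. The letters CCAAT occurred in 6 of the 13 (46.2%, against 39.3% and 37.9%) and GGGCGG in 9 of the 13 (69.2%, against 66.2% and 35.9%). Over all 30 partners of divergent pairs with a window, detected or not, TATAAA occurred in 2 (6.67%), CCAAT in 11 (36.7%) and GGGCGG in 16 (53.3%). The last 2 shares lay below those of detected protein-coding genes. These matches describe letters in the windows, and with 13 or 30 windows no difference from detected coding genes was tested.

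MicroRNA hairpins lay on the strand of 2 detected members, and their mature sequences are shown because Dnm3os is known as the precursor of 2 of these microRNA pairs. Dnm3os held the hairpins of miR-199a and miR-214 within its body. Nr6a1os ended 365 bases before the hairpin Mir181a-2 and 1460 bases before Mir181b-2 on the same strand, so these lay outside the annotated gene. The capitals mark the seed, and the sequences are those of RefSeq.
miR-199a-5p: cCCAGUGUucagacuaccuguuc
miR-199a-3p: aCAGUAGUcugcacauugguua
miR-214-5p: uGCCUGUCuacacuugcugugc
miR-214-3p: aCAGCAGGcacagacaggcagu
miR-181a-5p: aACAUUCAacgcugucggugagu
miR-181b-5p: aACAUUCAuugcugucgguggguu

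The 2 miR-181 5p arms share 1 seed, ACAUUCA, while each of the 4 mature forms from within Dnm3os has a seed of its own. The poly(A) libraries do not read mature microRNAs, so only the levels of the long transcripts are given. Tmcc3os and Dio3os also held a hairpin each, Mir7211 and Mir1247, and stayed below the limit of detection in both libraries, at 0 and 0.05 TPM for Tmcc3os and 0.44 and 0.2 TPM for Dio3os. TPM is a level corrected for transcript length and scaled to a fixed total in each library.

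A gene was counted as detected at 1 TPM or more in both libraries. By that limit 62 of the 292 members were detected (21.2%). The share was 13.8% of the 2701 other genes typed antisense, 6.32% of other long intergenic noncoding RNAs, 28.4% of other processed transcripts and 31% of other bidirectional promoter noncoding RNAs. It was 7.39% of all 33216 other records that are not protein coding, 28.1% of all genes and 59.4% of protein-coding genes. The 62 had a median of 3.04 TPM; 21 reached 5 TPM and 14 reached 10 TPM in both libraries. Another 7 members passed the limit in replicate 1 alone and 8 in replicate 2 alone, and 68 had no counts in either library. Of noncoding genes with related endings, 3 of 3 named ot (overlapping transcript) and 3 of 7 named as (antisense) were detected.

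The members were a small share of each library. They held 12367 of the 29056772 gene counts in replicate 1 (0.0426%) and 16664 of the 37122519 in replicate 2 (0.0449%), and their TPM summed to 529.2 and 551.6. The 5 highest members took 37% of that sum in replicate 1 and 34.2% in replicate 2. As for the tissue label, all 8 midbrain identity markers were detected (summed 245 and 283 TPM), as were progenitor (1711 and 1799 TPM) and neuron markers (1400 and 1336 TPM). Most of the midbrain sum came from Otx2 (144.56 and 140.91 TPM) and Cnpy1 (73.85 and 115.78 TPM). The lowest of that list, En2, was at 1.14 and 1.64 TPM. Markers of other sources were present too: forebrain at 148 and 124 TPM, mesenchyme at 704 and 1005, red blood cells at 7561 and 8577 and microglia at 23.6 and 24.5. Lhx2 alone gave 101.29 and 86.21 TPM of the forebrain sum, and 3 of the 4 microglia markers were detected. In bulk tissue, fewer cells of a type and less RNA per cell cannot be told apart.

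**Figure D1:**
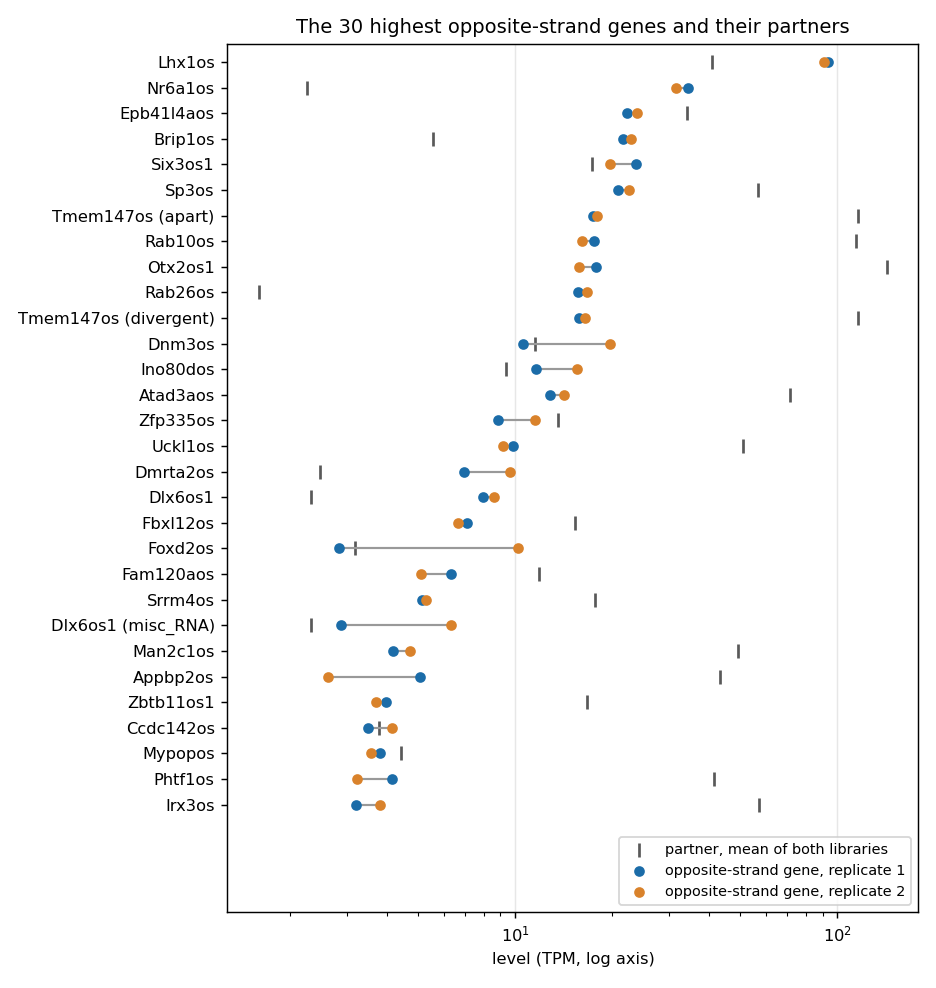
Level in TPM (log axis) of the 30 detected members with the highest mean, with replicate 1 in blue, replicate 2 in orange and a vertical tick at the mean of the partner. Lhx1os stands highest, at 93.5 and 90.7 TPM, and the dots of most members lie close together, with Foxd2os and Dnm3os among the widest gaps.

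The highest member was Lhx1os, beside Lhx1, a LIM homeodomain transcription factor of head formation and of neuron subtypes. Lhx1os (chr11:84525660-84535831, plus strand) was at 93.5 TPM in replicate 1 and 90.7 TPM in replicate 2, and Lhx1 at 42 and 39.6 TPM. The member thus exceeded its partner in both libraries, by 1.17 ± 0.03 on the log2 scale (SD, n = 2; 0.1 TPM was added to each level here and in all ratios to a partner). None of its exonic bases lay in the exons of another gene. It rested on 820 and 1003 counts, divided by the authors' model among 3 transcripts that each took 29.5% to 36.8% of its level.

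Nr6a1os was second, at 34.5 and 31.6 TPM. Its partner Nr6a1, an orphan nuclear receptor known for repressing pluripotency genes, was at 2.29 and 2.23 TPM, so the member stood 3.81 ± 0.06 (SD, n = 2) above it on the log2 scale. This was the widest gap in favour of a member among the 60 pairs with both genes detected. Nr6a1os (chr2:38823257-38852370, plus strand) lies wholly inside Nr6a1 and shares no exonic base with it. The longer of its 2 transcripts, with 645 bases, took 63.4% and 64.8% of the level. Rab26os was the other member inside its partner with a gap of this kind. It was at 15.7 and 16.8 TPM against 1.68 and 1.52 TPM for Rab26, a small GTPase of secretory vesicles, on 64 and 83 counts.

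Brip1os ran divergently from Brip1, a DNA helicase of crosslink repair that binds BRCA1. Brip1os was at 21.6 and 22.9 TPM and Brip1 at 5.77 and 5.39 TPM, a log2 gap of 1.98 ± 0.13 (SD, n = 2). A single transcript of 4423 bases took 96.1% and 96.8% of Brip1os. Dmrta2os, the divergent neighbour of Dmrta2, a DM-domain transcription factor of forebrain progenitors, was at 6.96 and 9.65 TPM against 2.47 and 2.49 TPM. Both members of these pairs exceeded their partner in each library, as did 10 detected members in all.

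Six3os1 and Otx2os1 each overlap the 5′ end of a homeobox gene that patterns the anterior brain. Six3os1 was at 23.7 and 19.7 TPM beside Six3, a regulator of forebrain and eye formation, at 19.2 and 15.5 TPM. The gap was 0.32 ± 0.03 (SD, n = 2) in favour of the member. Otx2os1 was at 17.8 and 15.7 TPM beside Otx2, required for forebrain and midbrain, at 145 and 141 TPM, a log2 gap of -3.09 ± 0.10 (SD, n = 2). The level of Six3os1 was spread over 11 of its 13 annotated transcripts, the first with 30.7% and 31.3%, and that of Otx2os1 over 6 of 7. In Otx2os1 19.2% of the exonic bases, and in Six3os1 10.8%, lay in exons of the opposite strand.

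Of the other members beside transcription factor families, Sp3os was at 20.8 and 22.5 TPM beside Sp3, a zinc-finger factor, at 58 and 55.5 TPM. Dlx6os1, which encloses the interneuron homeobox gene Dlx6, was at 7.95 and 8.57 TPM against 2.64 and 2.01 TPM. A second record of the same name, typed misc_RNA, was at 2.88 and 6.32 TPM on 2.52 and 7 counts, too few to place it. Irx3os was at 3.2 and 3.82 TPM beside Irx3, an Iroquois homeobox factor, at 56.1 and 57.9 TPM. Emx2os was at 2.78 and 2.52 TPM beside the cortical homeobox gene Emx2 at 18.1 and 14 TPM, and Zeb2os at 1.55 and 1.17 TPM beside the zinc-finger gene Zeb2 at 50.9 and 53.8 TPM. All of these but Dlx6os1 lay below their partner in both libraries.

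The partners that belong to developmental transcription factor families were found from their symbols: 33 partners with 42 members. Of these members 11 were detected (26.2%), against 49 of 246 beside other partners (19.9%). The partners themselves were detected less often, 20 of 33 (60.6%) against 164 of 210 (78.1%). In the 11 pairs with both genes detected the median log2 gap was 0.32 and 6 members exceeded their partner, while in the 49 other pairs it was -2.84 and 4 did. The sign of the first median rests on the misc_RNA record of Dlx6os1: without it the median over the other 10 pairs was -0.53, with 5 members above. The symbol pattern also leaves out factors such as Dmrta2, Jun and Prox1. With 7 such partners added the median was again -0.53, over 14 pairs with 7 members above, against -3.02 over the 46 pairs then left. Of the 31 undetected members of this kind, Pax6os1 was at 0.09 and 0.03 TPM beside the eye and brain regulator Pax6 at 57.2 and 16.9 TPM, and each of the 5 Sox5 members was at 0.3 TPM or less beside Sox5 at 29.9 and 36.7 TPM. Pax6os1 and the Sox5 members were chosen after their values were seen.

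The remaining members among the 15 highest lay beside genes of more general cell functions. Epb41l4aos was at 22.3 and 24 TPM beside Epb41l4a, of the band 4.1 family of membrane-cytoskeleton proteins, at 33.9 and 34.2 TPM. Rab10os was at 17.6 and 16.1 TPM beside Rab10, a small GTPase of membrane traffic, at 118 and 110 TPM. Atad3aos, divergent from the mitochondrial ATPase gene Atad3a with 85 bases between the starts, was at 12.8 and 14.2 TPM against 66.6 and 76.3 TPM. These 3 lay below their partners in both libraries. Ino80dos was at 11.6 and 15.5 TPM, above Ino80d, a subunit of the INO80 chromatin remodeller, at 9.47 and 9.29 TPM. Zfp335os, beside the zinc-finger gene Zfp335, was at 8.83 and 11.5 TPM against 13.5 and 13.7 TPM.

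Tmem147os has 2 records beside Tmem147, which encodes a membrane protein of the endoplasmic reticulum found at 114 and 119 TPM. The divergent record, ENSMUSG00000097320.8, was at 15.7 and 16.5 TPM. Of its exonic bases, 11.4% lay in opposite-strand exons and 12.5% in same-strand exons of other records. The other, ENSMUSG00000109224.1, was at 17.4 and 18 TPM. However, 100% of its exonic bases lay in same-strand exons annotated to any other record. Its reads were thus divided by the authors' model, and its level is uncertain.

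**Figure D2:**
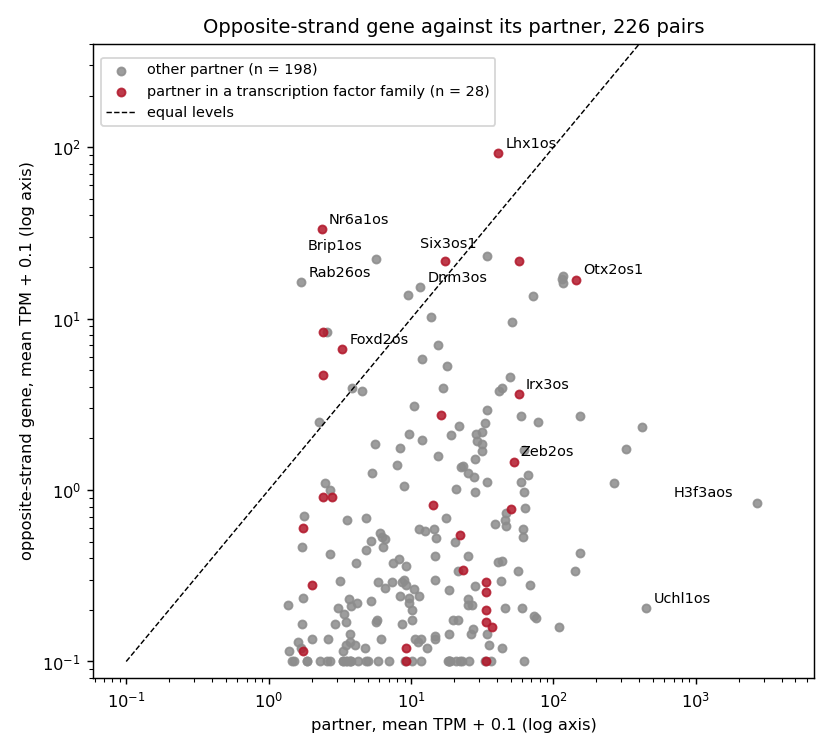
Mean level of the member against that of its partner, both in TPM plus 0.1 on log axes, for the 226 pairs with at least 1 gene detected; red points are the 28 pairs whose partner is in a transcription factor family, and the dashed line marks equal levels. Most points lie under the line, and Lhx1os, Nr6a1os, Brip1os and Rab26os stand above it.

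Members were as a rule the lower gene of the pair. Over the 226 pairs with at least 1 gene detected, the median log2 ratio of member to partner was -4.75 in replicate 1 and -4.86 in replicate 2 (mean -4.80 ± 0.08, SD, n = 2). The filter lets in pairs through either gene, and the partner was the detected one in most: 166 undetected members had a detected partner, while each of the 60 detected members with a partner had a detected one. Over those 60 pairs the median was -2.68 and -2.65 (mean -2.67 ± 0.02, SD, n = 2), with 10 members above and 47 below their partner in both libraries. Partners were detected in 184 of 243 cases (75.7%), beside 59.4% of all protein-coding genes.

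The level of a partner gave little of the level of its member. Across the 226 pairs the correlation of log2 levels was 0.27 (Pearson) and 0.30 (Spearman). Among the 60 pairs with both genes detected, Spearman's rho was -0.07, and it was -0.11 in the 24 of these without shared exonic bases. These are descriptions: the points share both libraries, some share a partner, and pairs enter the larger set only if 1 gene is detected.

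Some of the highest partners had a member below the limit of detection. H3f3aos was at 0.81 and 0.68 TPM beside H3f3a, which encodes histone H3.3, at 2573 and 2785 TPM. Uchl1os, known as an antisense RNA that acts on the translation of Uchl1, a neuronal deubiquitinase, was at 0.13 and 0.08 TPM beside it at 427 and 472 TPM. Tomm6os was at 0.88 and 1.13 TPM beside the mitochondrial import gene Tomm6 at 269 and 264 TPM, just at the limit. Mkln1os, Igf2os and Dnmt3aos were each at 0.54 TPM or less in both libraries beside partners at 105 to 165 TPM. Dnmt3aos had 3 counts in replicate 1 and 0 in replicate 2, where a count of 0 allows up to 3. Of the 67 members with a partner and no counts in either library, 35 had a detected partner.

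**Figure D3:**
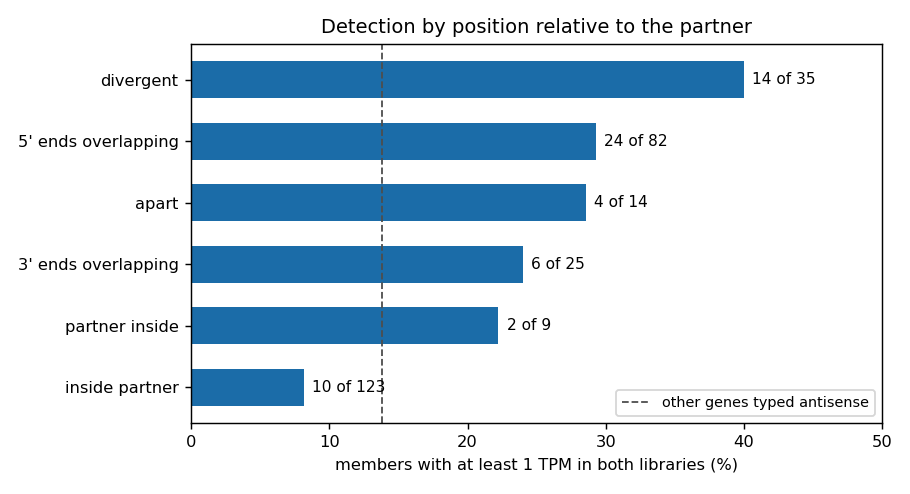
Percent of members detected (bars), by position relative to the partner, with the number detected of the number in each class; the dashed line is the 13.8% of other genes typed antisense. Divergent members have the highest bar (40%) and members inside their partner the lowest (8.13%).

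Detection was not the same in each position. Of the divergent members 14 of 35 were detected (40%), and of those that overlap the partner's 5′ end 24 of 82 (29.3%). The share was 24% (6 of 25) for overlap at 3′ ends and 8.13% (10 of 123) for members inside the partner. Partners were detected in 24 of the 35 divergent pairs and in 106 of the 123 with the member inside. The part of the partners in the detection of members was not tested. Median partner levels were 5.58 TPM in the divergent and 9.18 TPM in the inside class. The classes were counted over genes in the same 2 libraries, with no test over samples.

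Reads that fall where exons of both strands overlap bear on these levels. No source used here names the strand setting of the counts, and without strand such reads cannot be told apart. The authors' tables give a posterior standard deviation of each count, which is above 0 where reads were shared between genes. Of the members with 5 or more counts in both libraries, it was above 0 in 0 of the 30 with no exonic overlap. It was above 0 in 50 of 74 (replicate 1) and 51 of 74 (replicate 2) whose exons overlap exons of the opposite strand only. In those 74 its median was 1.36% and 1.14% of the count, and the highest values were 67.8% and 55.2%. In the tables, then, reads were divided between genes of opposite strands.

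**Figure D4:**
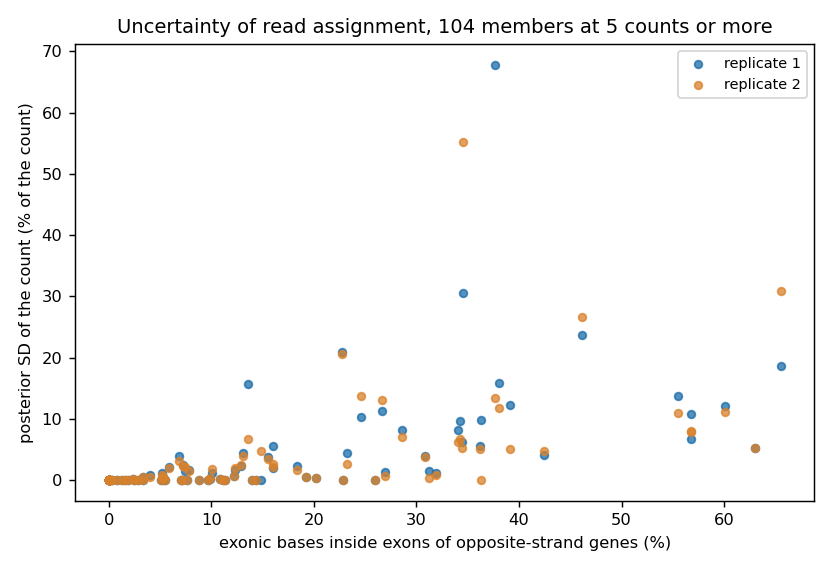
Posterior standard deviation of the count, in percent of the count, against the percent of a member's exonic bases inside exons of opposite-strand genes, for 104 members with at least 5 counts in both libraries and no overlap on the same strand; blue is replicate 1 and orange replicate 2. The points with no overlap lie at 0 and the highest points lie at overlaps above 30%.

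Detection was lower in members with no exonic overlap than in both classes with opposite-strand overlap, though it did not rise steadily with that overlap. Members that overlap exons of the same strand only are left out of these shares. The part of divided reads in detection was not tested. The share detected was 12.3% of the 114 members with no exonic overlap. It was 31.1% of the 90 with under 20% of their exonic bases in opposite-strand exons and 20.3% of the 79 with 20% or more. Of the 10 members above their partner, 8 shared no exonic base with it. Of these, Brip1os had 20.2% of its exonic bases in opposite-strand exons of other genes and Rab26os 15.7% in same-strand exons. Dlx6os1 had 7.48% in opposite-strand and 2.01% in same-strand exons, and its misc_RNA record 71.2% in same-strand exons. Lhx1os, Nr6a1os, Dmrta2os and Foxd2os overlapped no exon of another gene.

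The 3′ ends of the annotated transcripts were searched for AATAAA or ATTAAA, the letters of the poly(A) signal, in the last 50 bases of the most used transcript of each gene, on the transcript's own strand. For genes with no level in either library, among them the 68 members without counts, the longest annotated transcript was taken. Either signal occurred in 38 of the 62 detected members (61.3%) and in 122 of the 230 others (53%). The share was 43.7% of other detected antisense genes, 74.6% of detected protein-coding genes and 37.7% of all genes. The last 50 bases of 4 of the highest members are shown, from the GENCODE M21 transcripts, because an oligo-dT library captures RNA at such ends; capitals mark the signal, present in the first pair and absent in the second.
Lhx1os: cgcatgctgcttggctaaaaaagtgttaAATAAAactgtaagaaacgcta
Brip1os: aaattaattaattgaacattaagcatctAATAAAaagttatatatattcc
Nr6a1os: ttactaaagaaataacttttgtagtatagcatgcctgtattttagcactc
Six3os1: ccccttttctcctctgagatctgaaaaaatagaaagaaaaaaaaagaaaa

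The Six3os1 transcript ends in a run rich in A, and the Nr6a1os transcript holds no such run at its annotated end. Which ends were used in the libraries was not measured. Of the 62 detected members, 42 had 2 or more annotated transcripts, and in 32 of these the same transcript led in both libraries. In Zeb2os the leading transcript changed: ENSMUST00000130827.1 took 81.4% of the level in replicate 1 and 14.3% in replicate 2, on 35.2 and 38.2 counts for the whole gene.

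The libraries were compared with each other by the log2 ratio of replicate 1 over replicate 2, scaled by TMM, with an exact 95% interval that covers counting error only and treats reads as independent, since the libraries carry no molecular identifiers. A gene was called at a 2-fold difference with an interval that excludes equality. Of the 108 members with at least 10 counts in a library, 7 were called (6.48%), beside 4.23% of the 19885 genes compared. In direction, 1 lay above in replicate 1 (background 1.78%) and 6 lay above in replicate 2 (background 2.45%). The share of members is above that of all genes by few genes, and most calls rest on low counts. Of the 60 detected members compared, 1 was called. Among other noncoding genes compared, the share called was 8.94% of those typed antisense, 10% of long intergenic and 6.94% of processed transcripts. It was 4.21% of bidirectional promoter noncoding RNAs and 9% of all other records that are not protein coding. Of 210 partners compared, 6 were called (2.86%).

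The called member with most counts was Foxd2os, divergent from the forkhead transcription factor gene Foxd2. It had 72 counts in replicate 1 and 301 in replicate 2, at 2.85 and 10.2 TPM, a log2 ratio of -1.70 (interval -2.09 to -1.32). Foxd2 itself was lower in replicate 1 as well, at 2.32 and 4.07 TPM, with a log2 ratio of -0.78 (interval -1.12 to -0.45). Both genes of the pair were thus higher in the pool of 88 embryos, the member by more. All 4 mesenchyme markers and all 4 markers of red blood cells were also higher there, 3 of each list beyond counting error. Of the 8 midbrain identity markers, 5 were higher there and 3 lower, all beyond counting error. Median log2 ratios were -0.33 for mesenchyme, -0.16 for red blood cells and -0.32 for midbrain identity. The part of these markers in the difference of Foxd2os and Foxd2 was not tested.

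Dnm3os, beside the dynamin gene Dnm3 of membrane scission, showed the next clear difference without reaching 2-fold. It had 983 and 2042 counts, at 10.6 and 19.8 TPM, and its log2 ratio was -0.69 (interval -0.80 to -0.58). Dnm3 was at 11.9 and 11.1 TPM, with a log2 ratio of 0.11 (interval -0.01 to 0.23), so the pair did not move together. Dnm3os was below its partner in replicate 1 and above it in replicate 2, and the mean gap of 0.33 ± 0.70 (SD, n = 2) has no direction beyond that spread. None of its exonic bases lay in exons of the opposite strand. The mesenchyme and red blood cell markers, higher in replicate 2, go the same way as Dnm3os, as do 5 of the 8 midbrain identity markers. The other 3 midbrain markers go the other way, and the part of these lists was not tested.

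**Figure D5:**
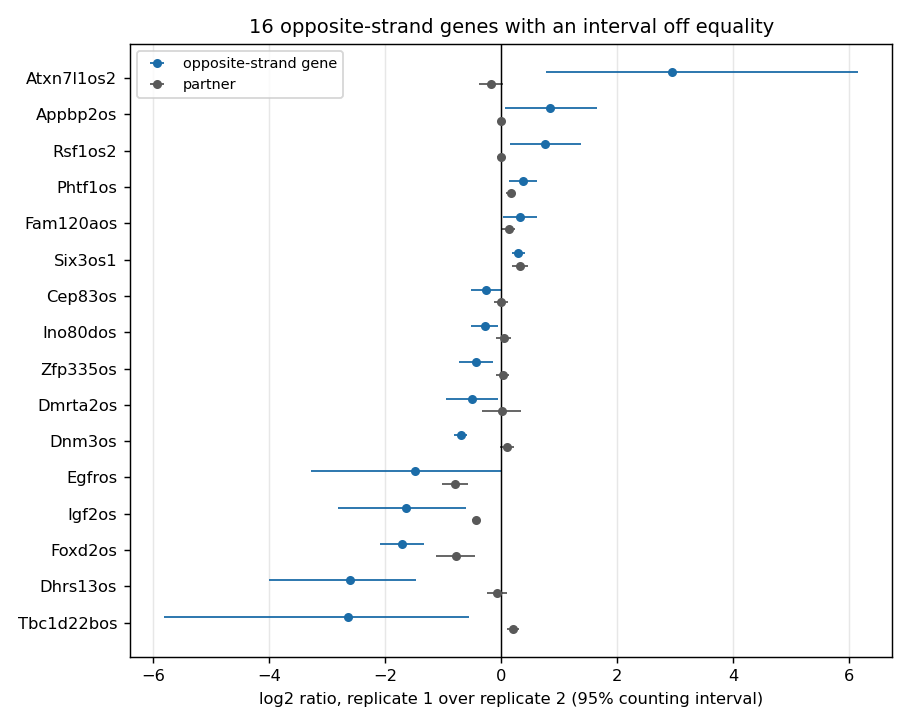
Log2 ratio of replicate 1 over replicate 2 with 95% counting intervals for 16 members whose interval excludes equality (blue) and for their partners (grey). Foxd2os, Igf2os and Egfros lie left of 0 with their partners, and Dnm3os lies left of 0 with a partner near 0; Chn1os1, with a count that rounds to 0 in replicate 1, is left out because its ratio has no finite value.

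Six3os1 and Six3 were both higher in replicate 1 by a similar amount, with log2 ratios of 0.30 (interval 0.19 to 0.41) and 0.33 (interval 0.19 to 0.46). The forebrain marker list, which itself includes Six3, had 4 genes higher and 2 lower in replicate 1 beyond counting error, and its part was not tested. The other called members were low. Igf2os had 10 and 40 counts beside the growth factor gene Igf2, which was also lower in replicate 1, at 117 and 165 TPM. Egfros had 5 and 18 counts beside the growth factor receptor gene Egfr, at 2.64 and 4.52 TPM. Both members thus differed in the direction of their partner. The call of Egfros was lost with DESeq2 size factors.

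Dhrs13os (7.49 and 54.9 counts), Tbc1d22bos (2.01 and 16 counts) and Chn1os1 (0.37 and 10.3 counts) were higher in replicate 2, and Atxn7l1os2 (11.7 and 2.05 counts) was higher in replicate 1. None of the 4 partners was called in the same comparison. Log2 ratios were -2.61 for Dhrs13os (interval -3.99 to -1.47), -2.64 for Tbc1d22bos (interval -5.80 to -0.55) and 2.95 for Atxn7l1os2 (interval 0.78 to 6.15). The intervals do not cover the division of reads between genes. For Chn1os1, with 83.8% of its exonic bases in exons of its partner, the posterior standard deviation of the count was 3.05 and 5.55, and with the older M4 annotation it had 0 counts in both libraries and was not called. For Dhrs13os that deviation was 5.08 and 7.34, and the call was kept with M4.

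Over all members compared, 17 had an interval off equality (15.7%, beside 32.3% of all genes, which have more counts), 6 of them on the side of replicate 1 and 11 on that of replicate 2. Members had a median log2 ratio of -0.02 and all genes one of -0.01. The median absolute log2 ratio was 0.28 in members, 0.17 in detected members and 0.14 in all genes. In 103 pairs with both genes compared, 58 had both on the same side of equality, and Spearman's rho of the ratios was 0.23. Both intervals excluded equality in 7 pairs, and 6 of these were on the same side.

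The older M4 annotation of the same libraries gave close levels for most members. Of 70 members at 1 TPM or more in either table, 66 differed by less than 1.5-fold in the mean. The exceptions were Zfhx2os (0.42 and 0.48 TPM with M21, 5.56 and 3.25 TPM with M4), Mypopos (3.82 and 3.58 against 1.11 and 0.71 TPM), Cep83os (1.81 and 2.2 against 3.19 and 3.78 TPM) and Dnm3os (10.6 and 19.8 against 7.08 and 11.6 TPM). Each differed in the same direction in both libraries. With M4, Zfhx2os would have counted as detected, beside the homeobox gene Zfhx2.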

How the data were processed

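Expected counts (estimated read numbers that need not be whole), their posterior standard deviation and TPM were taken from the gene tables the authors deposited, per the file headers. How a gene's level splits over its transcripts, in percent, was read from the deposited transcript tables. No source used here names the aligner, the counting tool or the strand setting. Total expected counts were 30274342 and 38421860. Rows that name no gene, mostly spike-in controls, took 4.02% and 3.38% and were left out of library sizes.

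Names, types and positions came from the GENCODE M21 annotation, on which the M21 tables rest. Ratios between libraries used counts rounded to whole numbers, TMM factors (edgeR 4.0.16, R 4.3.3) and exact conditional binomial (Clopper-Pearson) intervals, for genes that reached 10 counts in either library. On simulated Poisson counts the intervals covered 95.4% of unchanged genes, 152 of 19575 unchanged genes were called, and 100% of genes changed 4-fold were called. The changed genes had a mean of at least 50 counts, so the last share does not cover most called members, which had fewer. The draws held only the counting error that the intervals assume. RefSeq promoter windows matched 197 of 243 partners by symbol.

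Members, lists and limits were chosen with earlier results of these data known. Genes named were the 15 highest detected members, detected members of transcription factor families or above their partner, those called between libraries, the 5 largest differences between annotations and 6 undetected members beside the highest partners. The 2 kb window for microRNA hairpins was chosen after the data were seen. Alternatives covered the limits, pseudocount, scaling, annotation and each library left out.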

Additional observations from a re-analysis of the deposited data

How the results depend on the processing

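The 62 detected members became 39 at a limit of 2 TPM and 85 at 0.5 TPM; with 1 library alone the count was 69 to 70. The median log2 ratio of member to partner stayed below 0 under each setting tried. It was -3.01 with a pseudocount of 1 TPM, -5.82 with 0.01 TPM, -4.06 over all 288 pairs, -2.67 over the 60 pairs with both detected and -4.98 over the 99 pairs without exon overlap; with either library alone it was -4.86 to -4.75. For transcription factor families the median of 0.32 turned to -0.53 without the misc_RNA record of Dlx6os1 and to -0.53 with 7 further factors, both chosen after seeing the data, and was 0.12 to 0.34 with 1 library alone. Members above their partner numbered 10, and 12 to 13 with 1 library alone. The 7 members called between libraries became 2 at a minimum of 50 counts, where fewer genes enter, and 10 with spike-in scaling, which moved the median of all genes to -0.28; M4 also gave 7, of which 6 were shared. Divergent pairs rose from 35 to 56, with 29 shared, when 5′ ends were those of the most used transcripts. The longest transcript stood in where a gene had no level. Detection by position was not counted again on that basis. Dnm3os over its partner was 0.33 and turned to -0.17 in replicate 1 alone and to -0.41 with M4, and was 0.82 in replicate 2 alone; the cause was not tested. No paired analysis was possible because there is 1 group. Counts near 10 leave intervals too wide to place most low members, and short transcripts rest on few reads at a given TPM.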
